A study of Sus scrofa with 12 samples.

Results

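The genes described here code for the translation initiation and elongation factors of pig granulosa cells. They were taken by name from the deposited expression table, as every gene whose symbol begins with EIF1 to EIF6 or with EEF1 or EEF2, leaving out the EIF2AK kinases and the EIF4EBP repressors. This gave 49 members of 18060 genes by a rule on names that uses no measured value. The symbols EIF2B1, EIF2S3, EIF3C, EIF3K, EIF5, EIF5A and EEF1G were not analysed here, because no row of the table carries them.

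Granulosa cells line the ovarian follicle and nurse the oocyte, and those studied here were primary cells taken from antral follicles of sows crossed from Duroc, Yorkshire and Landrace. They were grown in DMEM/F-12 with 15% foetal bovine serum and then held for 12 h either in normoxia (21% O2, 5% CO2 and 74% N2) or in hypoxia (1% O2, 5% CO2 and 94% N2), with 3 biological replicates in each condition. No other agent or genotype distinguishes the groups. Every replicate gave an input library of RNA, which measures expression. It also gave a library enriched with an antibody against N6-methyladenosine (m6A), a methylated base found within mRNA. There were thus 12 libraries, and no division of them into batches is labelled. The labels do not say whether each replicate was a separate sow, and p-values then measure only the spread between these samples, which may be technical.

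Translation of most mRNAs begins when the cap at the 5′ end is bound by eIF4F, made of the cap-binding protein eIF4E, the scaffold eIF4G and the helicase eIF4A. The small ribosomal subunit, carrying eIF1, eIF1A, eIF3 and the complex of eIF2 with GTP and initiator tRNA, is recruited to that cap and scans to the start codon, where eIF5B joins the large subunit. The exchange factor eIF2B reloads eIF2 with GTP, and stress kinases that phosphorylate eIF2 act by blocking it. In elongation eEF1A brings aminoacyl-tRNA to the ribosome, the eEF1B proteins recharge eEF1A, and eEF2 moves the ribosome along the mRNA until the kinase eEF2K phosphorylates it.

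Levels are in FPKM, the fragments assigned to a gene scaled by its length and by the library. The depth of the libraries is unknown, and their FPKM summed to between 294929 and 326804. The median tested gene stood at 4.50 FPKM in hypoxia library 3 against 5.37 to 6.85 in the other 5 libraries. Of the 11 granulosa markers examined, all were in the table and 8 passed the filter on low values, but the aromatase gene CYP19A1 stayed at or below 0.402 FPKM and the anti-Müllerian hormone gene AMH at or below 0.353. The summed level of the 11 ran from 98.1 to 108 FPKM in normoxia and from 103 to 115 in hypoxia, with the inhibin subunit gene INHBB called higher and the receptor genes FSHR and AMHR2 called lower. All 8 markers of fibroblasts and smooth muscle were present, and their sum ran from 7551 to 9337 FPKM in normoxia and from 3852 to 4874 in hypoxia, most of it from the smooth muscle actin gene ACTA2. In that list ACTA2 and DES were called lower, and COL1A1 and PDGFRA higher. The endothelial gene PECAM1 was called lower, from 6.19 to 6.80 FPKM in normoxia to 2.52 to 3.01 in hypoxia, while the other 4 endothelial markers in the table stayed at or below 0.24. Of the leukocyte markers, PTPRC did not exceed 0.077 FPKM, but CD14 reached 3.68 and CD68 reached 3.55, the latter in hypoxia 3. PDGFRB, on the theca list, stood at 27.0 FPKM in hypoxia 3 against 10.7 and 10.9 in the other hypoxia libraries. The part of these markers in the results below was not tested, and in such bulk samples fewer cells of a type and less RNA per cell cannot be told apart.

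Of the 49 members, 46 passed the filter (at least 1 FPKM in at least 3 of the 6 input libraries) and were tested with limma on log2(FPKM + 1), adjusted over all 10196 tested genes. After 12 h of hypoxia 11 translation factors were lower and 1, the translocase EEF2, was higher at an adjusted p under 0.05. The scaffold EIF4G1, the exon junction helicase EIF4A3 and the eIF2B subunit EIF2B3 had the most stable losses, each passing the threshold in all fits run. These 12 are 26.1% of the tested members, beside 26.5% of all tested genes. The 11 lower members are 23.9% of the members, beside 21.1% of all genes called lower, and the 1 higher member is 2.17%, beside 5.4% called higher. The 11 include EEF1E1, which passed the filter only through its normoxia libraries. They also include EIF2B3, which met it through normoxia, since only hypoxia 2 (1.00 FPKM) of its hypoxia libraries reached 1 FPKM. The members as a group were thus called about as often as any gene. Their median log2 fold change was -0.30, against -0.27 for all tested genes, and 38 members had a negative and 8 a positive value.

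That median depends on how the libraries are scaled. Dividing each library by its median ratio to the average library moved the median of all tested genes from -0.27 to 0.02 and that of the members from -0.30 to 0.05, so the sign of the members' median flipped with the scaling. On this median-ratio scale 8 members were called, 2 higher and 6 lower, beside 14.7% of all tested genes (7.34% higher and 7.39% lower). The lower calls of EIF4G3, EEF2K, EIF2B5, EIF1AD and EIF4E2 were lost and EIF4B was gained as higher. Leaving out a normoxia library left 7, 4 or 6 members called (without library 1, 2 or 3), beside 15.2%, 11.1% and 13.7% of all tested genes. Leaving out a hypoxia library left 5, 19 or 26 (without library 1, 2 or 3), beside 13.9%, 28.4% and 42.5%. EIF4A3, EIF2B3, EIF4G1 and EIF1AD were called with each library left out. TPM scaling gave 11 calls (24.7% of all tested genes called), a pseudocount of 0.1 also 11 (25.2%), no filter on low values 12 (15.9%), no trend or robust estimation 12 (27.2%) and a fit with the replicate number as a block 19 (34.0%).

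**Figure D1:**
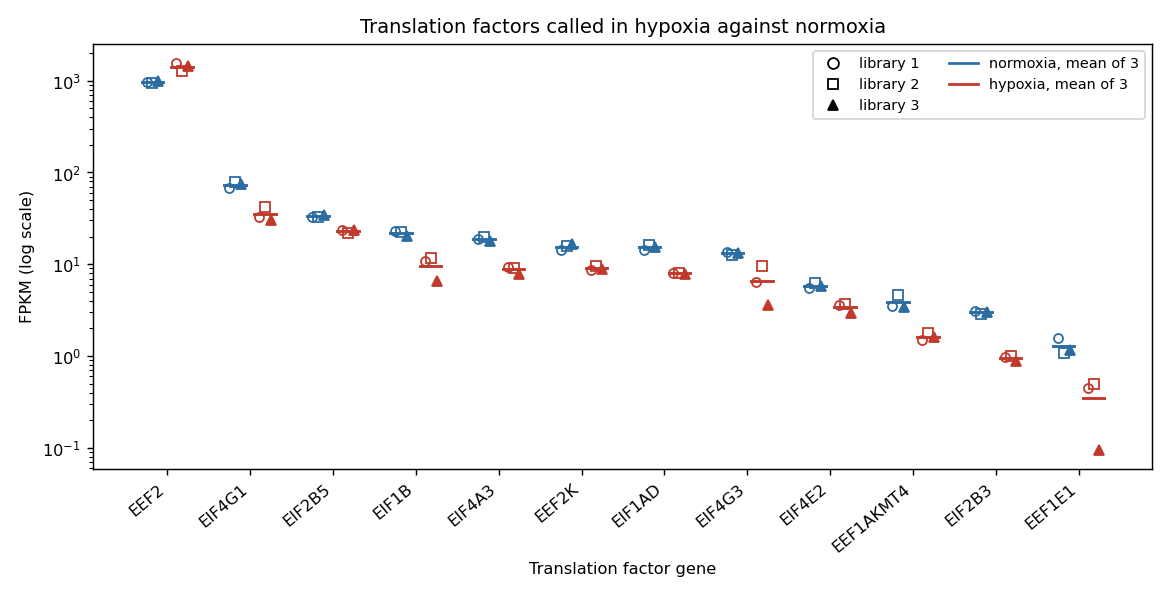
FPKM (log scale) of the 12 translation factors called between the conditions, with 1 point for each of the 3 input libraries per condition and a line at each mean. EEF2 is the only gene whose hypoxia libraries lie above its normoxia libraries, and in the other 11 genes the hypoxia libraries all lie below.

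The factors that read the start codon on the small subunit are 3 in this set. EIF1B, a close paralogue of the start codon selection factor EIF1, stood at 23.1, 22.3 and 20.5 FPKM in the normoxia libraries and at 10.7, 11.6 and 6.63 in the hypoxia libraries. Every hypoxia library lay below every normoxia library. The log2 fold change was -1.14 (SE 0.21, limma adjusted p = 0.00934), and the call was lost without normoxia 2 (adjusted p = 0.0522). EIF1 itself, the most abundant of the 3, measured 283, 273.5 and 280 FPKM in normoxia and 246, 225 and 225 in hypoxia. Its libraries did not overlap either, but the change was small (-0.27, SE 0.12) and was not called (adjusted p = 0.145). Reads shared by such similar paralogues could have been split between them, so the division between EIF1 and EIF1B is uncertain. EIF1AX, which keeps the subunit open for scanning, ran from 5.71 to 20.8 FPKM with overlapping conditions (adjusted p = 0.762).

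None of the 4 factors that carry initiator tRNA was called, and none had an unadjusted p under 0.05 or a q under 0.05 in the authors' deposited table. Their median log2 fold change was -0.55, or -0.23 on the median-ratio scale. EIF2S2, the beta subunit of eIF2 and the most abundant of the 4, measured 32.2, 31.9 and 23.1 FPKM in normoxia and 17.3, 25.7 and 5.33 in hypoxia. EIF2S1, the alpha subunit that stress kinases phosphorylate, measured 10.7, 12.2 and 8.50 FPKM in normoxia and 5.87, 9.40 and 2.32 in hypoxia. In both genes hypoxia 3 was far below hypoxia 1 and 2, and 1 hypoxia library lay inside the normoxia range. The values were -1.03 for EIF2S2 (SE 0.50, adjusted p = 0.177) and -0.88 for EIF2S1 (SE 0.40, adjusted p = 0.154), and without hypoxia 3 both were -0.43 (adjusted p = 0.0993 for EIF2S2 and 0.11 for EIF2S1). EIF2S2 shares 4134 bases with RALY on the opposite strand, and the sources used here do not say whether reads were counted by strand. EIF2A and EIF2D, which can deliver initiator tRNA without eIF2, had values of 0.09 and -0.22 (adjusted p = 0.895 and 0.282). Without hypoxia 2, EIF2S1 and EIF2S2 were called lower, beside 28.4% of all tested genes called in either direction. Without hypoxia 3 only EIF2A was called, and it was higher (0.55, adjusted p = 0.0234), beside 11.2% of all tested genes called higher.

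Of the 4 measured subunits of the exchange factor eIF2B, 2 were lower, beside 21.1% of all tested genes. EIF2B3, the gamma subunit, was at 3.13, 2.90 and 3.01 FPKM in normoxia and at 0.984, 1.00 and 0.875 in hypoxia. It met the filter through its normoxia libraries, since only hypoxia 2 reached 1 FPKM in hypoxia. At that level the filter favoured a lower call. The spread within a condition was small, and the mean went from 3.01 ± 0.115 to 0.953 ± 0.0681 (SD, n = 3). On the log2 scale it fell by 1.04 (SE 0.14, adjusted p = 0.00279), or by 1.56 with a pseudocount of 0.1, since the gene lies near the pseudocount of 1. EIF2B5, the catalytic epsilon subunit and the most abundant of the 4, was at 33.1, 32.9 and 34.6 FPKM in normoxia and at 23.7, 21.7 and 23.5 in hypoxia. These libraries did not overlap, and the log2 fold change was -0.53 (SE 0.13, adjusted p = 0.0216). On the median-ratio scale it was -0.18 (adjusted p = 0.566), and the call was also lost without any 1 of the normoxia libraries or without hypoxia 1 (adjusted p from 0.0763 to 0.102). EIF2B2 and EIF2B4, the beta and delta subunits, had values of -0.38 and -0.28 and were not called (adjusted p = 0.102 and 0.272). Without hypoxia 3 all 4 eIF2B subunits were called lower, beside 31.2% of all tested genes. Without hypoxia 1 or any 1 of the normoxia libraries 1 subunit was called lower. Of all tested genes 11.1% to 15.2% were called in those fits, in either direction.

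The 11 measured subunits of eIF3, the scaffold that binds the small subunit and contacts eIF4G, gave no call, beside 26.5% of all tested genes. Only 2 had an unadjusted p under 0.05, and 0 had a q under 0.05 in the authors' deposited table. Their median was -0.13, and 0.23 on the median-ratio scale, so its sign flipped with the scaling. EIF3F was the most abundant, with 171, 176 and 200 FPKM in normoxia and 170, 131 and 222 in hypoxia. Its hypoxia libraries lay on both sides of the normoxia range. The same shape, with hypoxia 1 and 2 below and hypoxia 3 above all normoxia libraries, was seen in EIF3G and EIF3D. EIF3E and EIF3H had the opposite shape, with hypoxia 1 and 2 above and hypoxia 3 below. EIF3E, for example, had 28.9, 26.3 and 22.9 FPKM in normoxia and 34.2, 41.7 and 17.6 in hypoxia. EIF3A, the largest subunit, measured 42.6, 42.1 and 32.5 FPKM in normoxia and 26.4, 43.1 and 9.28 in hypoxia (-0.78, SE 0.49, adjusted p = 0.292). EIF3J, a loosely bound subunit, had a value of -1.0 (SE 0.41, adjusted p = 0.12). Without hypoxia 3, 2 of the 11 subunits were called lower and 1 higher, beside 31.2% and 11.2% of all tested genes. Without hypoxia 2, 1 was called lower, beside 28.4% of all tested genes called in either direction.

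The eIF4 group brings the mRNA to the ribosome. Of its 10 tested members 3 were lower and 0 higher, beside 21.1% and 5.4% of all tested genes. Its median was -0.625, and -0.33 on the median-ratio scale. The group held 1 lower call without hypoxia 1 or any 1 of the normoxia libraries, and 6 lower calls without hypoxia 2. Of all tested genes 11.1% to 15.2% and 28.4% were called in those fits, in either direction. Without hypoxia 3 it held 6 lower and 2 higher calls, beside 31.2% and 11.2% of all tested genes. EIF4G1, the main scaffold between the cap-binding protein and eIF3, stood at 67.7, 78.2 and 74.2 FPKM in normoxia and at 33.1, 42.5 and 30.0 in hypoxia. All 3 hypoxia libraries were well below the lowest normoxia library, and the mean went from 73.3 ± 5.31 to 35.2 ± 6.49 FPKM. The log2 fold change was -1.05 (SE 0.17, adjusted p = 0.00487), and -0.70 after median-ratio scaling (adjusted p = 0.031). EIF4G3, its paralogue, stood at 13.4, 12.6 and 13.3 FPKM in normoxia and at 6.46, 9.58 and 3.61 in hypoxia. The conditions did not overlap, but the hypoxia libraries were widely spread. Its change of -0.98 (SE 0.29) passed narrowly (adjusted p = 0.0465). It no longer passed after median-ratio scaling (0.105), with TPM (0.0783), with a pseudocount of 0.1 (0.0544), without the filter (0.0872), or without any 1 of the normoxia libraries or hypoxia 1 (0.121 to 0.137). EIF4G2, a scaffold that lacks the cap-binding protein's site and the most abundant gene of the group, stood at 240, 208 and 177 FPKM in normoxia and at 224, 303 and 88.4 in hypoxia. Its conditions overlapped (-0.18, SE 0.43, adjusted p = 0.795).

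Among the cap-binding proteins, EIF4E2 was the one called. EIF4E2, also known as 4EHP, binds the cap without eIF4G, represses chosen mRNAs and has been described as a carrier of translation in hypoxic cells. It measured 5.54, 6.20 and 5.87 FPKM in normoxia and 3.60, 3.65 and 2.93 in hypoxia, with no overlap. The log2 fold change was -0.65 (SE 0.16, adjusted p = 0.0215). That call was lost on the median-ratio scale (-0.36, adjusted p = 0.163) and without any 1 of the normoxia libraries or hypoxia 1 (adjusted p from 0.0696 to 0.11). EIF4E, the canonical cap-binding protein, measured 10.1, 9.51 and 8.63 FPKM in normoxia and 5.27, 7.24 and 1.77 in hypoxia. Its libraries did not overlap and its mean difference was larger, at -0.99, but its error was larger too (SE 0.38), and it was not called (adjusted p = 0.102). EIF4E3 measured 4.85, 4.90 and 4.23 FPKM against 2.98, 3.21 and 1.31, also without overlap (-0.74, SE 0.26, adjusted p = 0.0746). Hypoxia 3 was the lowest library in all 3 genes, and without it both EIF4E and EIF4E3 were called lower with smaller changes (-0.53 and -0.46, adjusted p = 0.0218 and 0.0296). Without hypoxia 2 they were called as well, with larger changes (-1.32 and -0.90, adjusted p = 0.0264 and 0.0415). The difference in response between the 3 cap-binding proteins was not tested. EIF4ENIF1, which shuttles eIF4E into the nucleus, was not called (-0.60, SE 0.19, adjusted p = 0.0543).

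The eIF4A helicases unwind the 5′ UTR with the help of EIF4B and EIF4H. EIF4A2 measured 19.1, 18.9 and 14.7 FPKM in normoxia and 27.0, 40.4 and 10.5 in hypoxia, where libraries 1 and 2 were above and library 3 below every normoxia library (0.36, SE 0.44, adjusted p = 0.596). Its more abundant paralogue EIF4A1 carries only an identifier in the deposited table and is therefore no member; the symbol came from a table of gene names. EIF4A1 measured 275, 258 and 260 FPKM in normoxia and 183, 170 and 149 in hypoxia, without overlap. Its log2 fold change was -0.66 (SE 0.13, adjusted p = 0.0108), and -0.31 on the median-ratio scale (adjusted p = 0.251). Without normoxia 1, 2 or 3 the adjusted p of EIF4A1 was 0.0554, 0.0563 or 0.0509. The helicase cofactor EIF4B measured 191, 160.5 and 157 FPKM in normoxia and 244, 238 and 158 in hypoxia. Its change of 0.31 (SE 0.20, adjusted p = 0.31) became 0.66 on the median-ratio scale (adjusted p = 0.0416). The other cofactor, EIF4H, was not called (-0.25, adjusted p = 0.388).

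**Figure D2:**
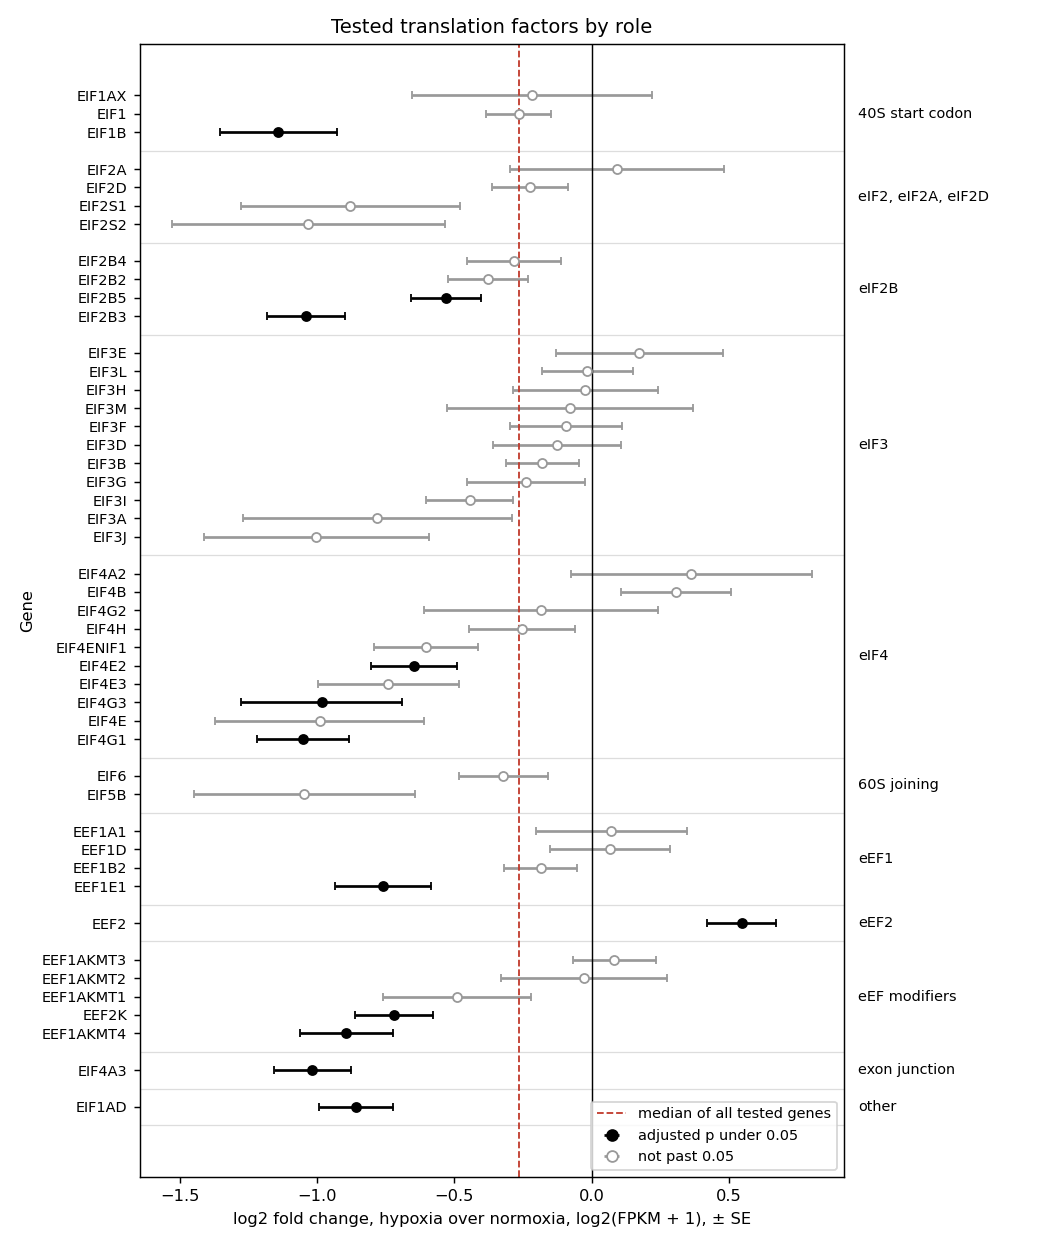
Log2 fold change (hypoxia over normoxia, log2(FPKM + 1), bars ± SE of the limma fit) of the 46 tested translation factors, ordered by role. EEF2 lies alone among the called genes on the right at 0.55, while the 11 genes called lower lie between -1.14 and -0.53.

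EIF4A3 is related to the eIF4A helicases but works in the exon junction complex, which marks spliced mRNA. It measured 18.95, 19.6 and 17.8 FPKM in normoxia and 9.28, 9.18 and 7.90 in hypoxia. The conditions were far apart compared with their spread, and the mean went from 18.8 ± 0.935 to 8.79 ± 0.767 FPKM. The log2 fold change was -1.02 (SE 0.14, adjusted p = 0.00294). EIF1AD, which contains an eIF1A-like domain, measured 14.3, 16.2 and 15.6 FPKM in normoxia and 8.13, 8.06 and 7.92 in hypoxia. Its 3 hypoxia libraries were nearly equal and all below normoxia (-0.86, SE 0.13, adjusted p = 0.00459), but the call was lost on the median-ratio scale (-0.53, adjusted p = 0.0751). EIF1AD overlaps BANF1 by 643 bases on the opposite strand, and BANF1 averaged 215 FPKM in normoxia and 152 in hypoxia. The part of BANF1 reads in the EIF1AD value was not tested. Of the pair of genes for subunit joining, EIF5B, the GTPase that joins the subunits, had a value of -1.05 (SE 0.40, adjusted p = 0.102). EIF6, which keeps free large subunits from joining too early, was the more abundant, with 71.5, 71.2 and 82.5 FPKM in normoxia and 62.3, 50.1 and 68.2 in hypoxia (-0.32, SE 0.16, adjusted p = 0.191). Neither was called, 1 had an unadjusted p under 0.05, 0 had a q under 0.05 in the authors' deposited table, which marks EIF5B as significant. Without hypoxia 3 both were called lower (EIF5B at -0.58 and EIF6 at -0.42), beside 31.2% of all tested genes. Without hypoxia 2 EIF5B was called lower (-1.41).

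The elongation factors EEF1A1 and EEF2 were by far the most abundant members. EEF1A1, which delivers aminoacyl-tRNA, made up 35.4% to 50.9% of the members' summed FPKM in each library and EEF2 came next. EEF2 measured 959, 948.5 and 985 FPKM in normoxia and 1544, 1268 and 1427 in hypoxia. All 3 hypoxia libraries were above all 3 normoxia libraries, and the mean went from 964 ± 18.8 to 1413 ± 138 FPKM, 1.47 times as high. The log2 fold change of EEF2 was 0.55 (SE 0.13, adjusted p = 0.0191) and 0.90 on the median-ratio scale (adjusted p = 0.0199). The call of EEF2 was lost without any 1 of the normoxia libraries or hypoxia 1 (adjusted p from 0.0718 to 0.093), while the direction stayed positive in every fit run. EEF1A1 measured 3420, 2566 and 2696 FPKM in normoxia and 3846, 3650 and 1960 in hypoxia. Its hypoxia libraries lay on both sides of normoxia (0.07, SE 0.28, adjusted p = 0.882), and the short gene has many near-identical copies in mammalian genomes, so that its level is uncertain.

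Of the other tested eEF1 genes, only EEF1E1 was called, at a level where the filter favoured a lower call. EEF1E1 codes for a scaffold protein of the multi-tRNA synthetase complex rather than for an exchange factor. It was scarce, at 1.58, 1.08 and 1.16 FPKM in normoxia and at 0.455, 0.499 and 0.0960 in hypoxia, and it passed the filter only through its normoxia libraries. Its value was -0.76 (SE 0.17, adjusted p = 0.0187), and -1.75 with a pseudocount of 0.1. The call was lost without any 1 of the normoxia libraries or hypoxia 1 (adjusted p from 0.0572 to 0.0807). EEF1B2, an exchange factor for eEF1A, kept within 270 to 345 FPKM (-0.185, SE 0.13, adjusted p = 0.357), and EEF1D, a further exchange factor subunit, within 74.7 to 127 FPKM (0.07, adjusted p = 0.857). The median of the 4 tested eEF1 genes was -0.06, and 0.30 on the median-ratio scale.

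Enzymes that modify the elongation factors gave 2 lower calls among 5 tested genes, beside 21.1% of all tested genes called lower. EEF2K, the calcium- and energy-regulated kinase that inhibits eEF2, measured 14.1, 15.7 and 16.7 FPKM in normoxia and 8.56, 9.57 and 8.92 in hypoxia. Every hypoxia library lay below every normoxia library, opposite to the direction of its substrate EEF2. EEF2K changed by -0.72 (SE 0.14, adjusted p = 0.0102), and by -0.39 on the median-ratio scale (adjusted p = 0.189). Its call was lost without normoxia 2, normoxia 3 or hypoxia 1 (adjusted p from 0.0547 to 0.0615). EEF1AKMT4, a lysine methyltransferase of eEF1A, measured 3.54, 4.67 and 3.47 FPKM in normoxia and 1.49, 1.77 and 1.59 in hypoxia. It too did not overlap (-0.89, SE 0.17, adjusted p = 0.00911), and the call was lost without normoxia 2 or hypoxia 1 (adjusted p = 0.0552 and 0.0526). The most abundant gene of this role, the methyltransferase EEF1AKMT1, ranged from 37.3 to 84.8 FPKM with overlapping conditions (-0.49, SE 0.27, adjusted p = 0.233). EEF1AKMT2 and EEF1AKMT3, of the same enzyme family, had values of -0.03 and 0.08 and were not called.

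By the authors' deposited table, 7 of the tested members had a q under 0.05 with a lower level in hypoxia, beside 10.3% of all tested genes, and 1, EEF2, with a higher level, beside 8.73%. All 8 are among the 12 called here. The table's own mark of significance was given to 9 members, of which 8 are among the 46 tested, beside 17.5% of all tested genes. These were EEF1AKMT4, EEF1E1, EIF1B, EIF2B3, EIF4A3, EIF4G1 and EIF4G3, and also EEF1A2 and EIF5B, while EEF2 was not marked. The authors' log2 fold change was -1.66 for EIF2B3 (q = 4.89e-05), -1.06 for EIF4G1 (q = 0.0101), -1.10 for EIF4A3 (q = 0.00719) and 0.55 for EEF2 (q = 0.009). EEF2K, EIF1AD, EIF2B5 and EIF4E2 had q values from 0.0553 to 0.541 there.

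Genes whose conditions do not overlap were also counted, on the FPKM as deposited. The count was not repeated on the median-ratio scale, where the median log2 fold change of all tested genes moved from -0.27 to 0.02. In 21 members (45.7% of those tested) every hypoxia library was below every normoxia library, beside 34.9% of all tested genes, and in 1 member (2.17%) every hypoxia library was above, beside 9.25%. The 21 include EEF1E1, which passed the filter only through its normoxia libraries, and EIF2B3, which met it through normoxia. The 10 that did not overlap and were not called were EIF1, EIF2B2, EIF2D, EIF3B, EIF3I, EIF4E, EIF4E3, EIF4ENIF1, EIF5B and EIF6.

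Chromosome 13 carries 8 of the 49 members. EIF2B5 (chr13:122060473-122070304), EEF1AKMT4 (chr13:122148943-122156244) and EIF4G1 (chr13:122203508-122225360), all on the plus strand of Sscrofa11.1, lie within 165 kb and were all called lower. The table lists 14 genes in that stretch, of which 9 were tested and 4 called, each lower, beside 21.1% of all tested genes called lower. The stretch was bounded by called members, so its count of calls includes the 3 members by design. Besides them, PSMD2, which codes for a proteasome subunit, was called, and ALG3, AP2M1, DVL3, ABCF3 and ECE2 were not. This stretch was noticed after the values were seen. The other called members lie apart, with EEF2 at chr2:74747080-74756680 and EIF1AD at chr2:6334197-6340112.

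Of the 49 members, 3 failed the filter. EEF1A2, the form of eEF1A known from muscle and nerve, was listed at 0, 0 and 0.0433 FPKM in normoxia and at 1.63, 0.760 and 1.98 in hypoxia. It was above its normoxia level in all 3 hypoxia libraries, but only 2 libraries reached 1 FPKM. Without the filter it was called higher (1.24 on the log2(FPKM + 1) scale, adjusted p = 0.0133), and the authors' deposited table gives it a log2 fold change of 6.66 (q = 5.08e-14). No fold is given here, because normoxia libraries are listed at 0. In every library EEF1A1 exceeded EEF1A2 by far. EIF5A2, the rarer form of the hypusine-bearing factor eIF5A, ran from 0.178 to 1.37 FPKM with overlapping conditions. EIF4E1B, a form of eIF4E known from oocytes, was listed at 0 in 5 libraries and at 0.0291 in hypoxia 2.

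The hypoxia libraries differed among themselves more than the normoxia libraries did. The coefficient of variation was higher in hypoxia in 41 of the 46 tested members (89.1%), beside 82.8% of all tested genes. Hypoxia 3 was the lowest of the 6 libraries in 27 members (58.7%), beside 49.9% of tested genes. In 14 members (30.4%, beside 21.5%) it lay more than 2-fold below both other hypoxia libraries. These were EIF1AX, EIF2A, EIF2S1, EIF2S2, EIF3A, EIF3J, EIF3M, EIF4A2, EIF4E, EIF4E3, EIF4G2, EIF5B, EEF1E1 and EEF1AKMT2. In 6 members (13%, beside 6.83% of all tested genes) hypoxia 1 and 2 were above and hypoxia 3 below every normoxia library, and in 3 (6.52%, beside 2.82%) the reverse held. The median member stood 0.27, 0.33 and 0.69 log2 units below its normoxia mean in hypoxia 1, 2 and 3, where the median of all tested genes stood 0.22, 0.14 and 0.49 below.

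Without hypoxia 3, 26 members were called (5 higher and 21 lower), beside 42.5% of all tested genes called (11.2% higher and 31.2% lower). The 5 higher members were then EEF2, EIF2A, EIF3E, EIF4A2 and EIF4B. EEF2 itself was called both with and without hypoxia 3. The median of the members was -0.41 and that of all tested genes -0.17 in that fit. The source of the difference between hypoxia 3 and the other libraries was not tested.

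**Figure D3:**
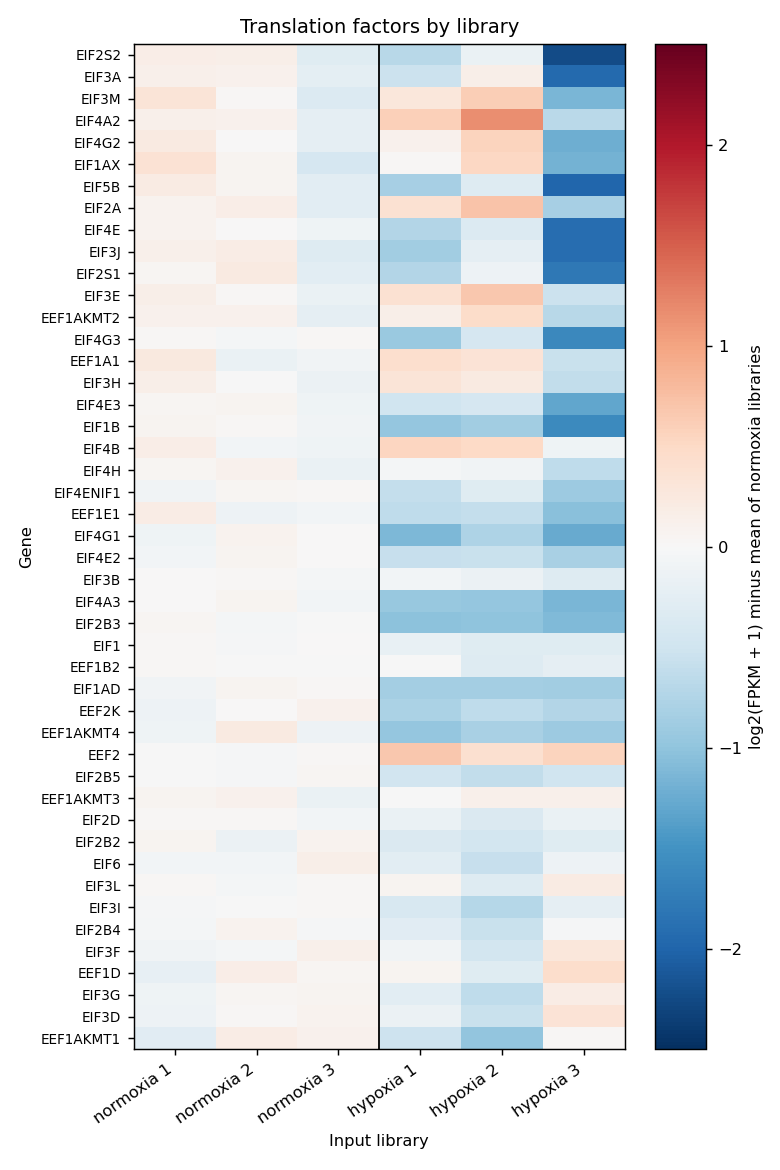
Log2(FPKM + 1) minus the mean of the normoxia libraries (colour, log2 units) for the 46 tested translation factors (rows) in the 6 input libraries (columns). Blue is below and red above normoxia. Hypoxia 3 is the lowest of the 6 libraries in 27 members, while EEF2 is red in all 3 hypoxia libraries.

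Other genes of the translation machinery were taken from lists of textbook members. The 66 cytosolic ribosomal proteins, the structural partners of these factors, gave 0 calls, beside 26.5% of all tested genes. None had an unadjusted p under 0.05, and none had a q under 0.05 in the authors' deposited table. Their log2 fold changes all lay between -0.25 and 0.26 with a median of -0.03, and on the median-ratio scale, where all genes shifted upward, the median was 0.33 and still 0 were called. Their median level was 409 FPKM in normoxia and 414 in hypoxia. Without hypoxia 3, 5 of the 66 were called higher, beside 11.2% of all tested genes.

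The cytosolic aminoacyl-tRNA synthetases, listed with their scaffold proteins, charge the tRNAs that eEF1A carries. They gave 14 lower and 0 higher calls among 21 tested genes, beside 21.1% and 5.4% of all tested genes. Their median was -1.11. On the median-ratio scale it was -0.80 with 11 lower and 1 higher, beside 7.39% and 7.34% of all tested genes. MARS1, the methionyl-tRNA synthetase, measured 58.6, 63.7 and 62.7 FPKM in normoxia and 10, 12.1 and 6.05 in hypoxia (-2.64, SE 0.24, adjusted p = 0.000738). WARS1, the tryptophanyl-tRNA synthetase, measured 71.7, 76.7 and 73.2 FPKM against 14.6, 15.0 and 10.8 (-2.38, SE 0.16, adjusted p = 0.00025). Both were called with each library left out. The count of called synthetases was 9 without normoxia 2 and 10 to 15 without any other single library. Of all tested genes 11.1% and 13.7% to 42.5% were called in those fits.

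A further list held the 4E-BP repressors, eIF4E kinases and the mTOR genes that act on them. Among its 10 tested genes 3 were called higher (DDIT4, EIF4EBP1 and EIF4EBP3) and 2 lower (MTOR and RPTOR). Of all tested genes 5.4% were called higher and 21.1% lower. DDIT4, an inhibitor of mTOR complex 1, went from 22.4 ± 1.35 to 361 ± 99.2 FPKM (3.92, SE 0.21, adjusted p = 0.000143). EIF4EBP1, the repressor that sequesters eIF4E, measured 40.6, 53.5 and 40.1 FPKM in normoxia and 80.5, 64.2 and 94.3 in hypoxia. Its rise of 0.81 (SE 0.19, adjusted p = 0.022) was lost without normoxia 1, normoxia 3 or hypoxia 1 (adjusted p from 0.083 to 0.0895). The kinase gene MTOR measured 14.6, 14.6 and 14.3 FPKM against 5.90, 6.85 and 5.86 (-1.11, SE 0.14, adjusted p = 0.00209). RPTOR, which codes for its partner raptor, changed by -0.91 (SE 0.17, adjusted p = 0.00775, and 0.0511 without normoxia 2), and its call was lost on the median-ratio scale (adjusted p = 0.0544). The count of called genes in this list was 3 without hypoxia 1 or any 1 of the normoxia libraries. In those fits 11.1% to 15.2% of all tested genes were called.

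Of the 12 eIF2 kinase and integrated stress response genes, 4 were lower and 1 higher, beside 21.1% and 5.4% of all tested genes. ATF4, the transcription factor whose translation rises when eIF2 is phosphorylated, measured 307, 302 and 299.9 FPKM in normoxia and 204, 192 and 127 in hypoxia (-0.82, SE 0.20, adjusted p = 0.0216). The call of ATF4 was lost without any 1 of the normoxia libraries (adjusted p from 0.0739 to 0.0886) and on the median-ratio scale (0.112). ATF5, a related factor, changed by -0.96 (SE 0.16, adjusted p = 0.00572), and by -0.65 on the median-ratio scale, where it missed the threshold (0.0631). PPP1R15A, which directs the phosphatase that restores eIF2, was higher by 0.73 (SE 0.19, adjusted p = 0.0283, and 0.0687 to 0.102 without any 1 of the normoxia libraries or hypoxia 1). On the median-ratio scale 1 gene of this list was called, beside 14.7% of all tested genes. Leaving out a normoxia library left 1, leaving out hypoxia 1 left 2 and leaving out hypoxia 2 left 3. These counts stand beside 11.1% to 15.2%, 13.9% and 28.4% of all tested genes. Without hypoxia 3, 4 were called lower and 2 higher, beside 31.2% and 11.2% of all tested genes.

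The smaller lists held few calls, beside 21.1% of all tested genes called lower and 5.4% called higher. GSPT1, which codes for the release factor eRF3a, was the 1 lower of 6 termination and recycling genes (-1.22, SE 0.36, adjusted p = 0.0436). Of the 8 genes that make hypusine on eIF5A or diphthamide on eEF2, the hypusine enzymes DHPS and DOHH were lower (-0.84 and -0.71, adjusted p = 0.0268 and 0.0138). Of 9 mitochondrial translation factors the elongation factor TUFM and the rescue factor MTRFR were lower (-0.83 and -0.71, adjusted p = 0.0108 and 0.0341). None of these 5 calls was kept on the median-ratio scale, and each was lost without normoxia 2, normoxia 3 or hypoxia 1 (adjusted p from 0.0509 to 0.152 over all such fits). The 14 cap, poly(A) and reinitiation cofactors gave 0 limma calls, with 2 at an unadjusted p under 0.05 and 3 at a q under 0.05 in the authors' deposited table. On the median-ratio scale 2 of them were called higher, beside 7.34% of all tested genes. These were PABPC4 (0.60, adjusted p = 0.0429) and PDCD4 (1.05, adjusted p = 0.0495). Without hypoxia 2, 3 of these cofactors were called lower, beside 28.4% of all tested genes called in either direction. Without hypoxia 3, 2 were called lower and 2 higher, beside 31.2% and 11.2% of all tested genes. Leaving out hypoxia 2 also raised the called genes to 3 in the termination list and to 4 in the hypusine and diphthamide list.

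**Figure D4:**
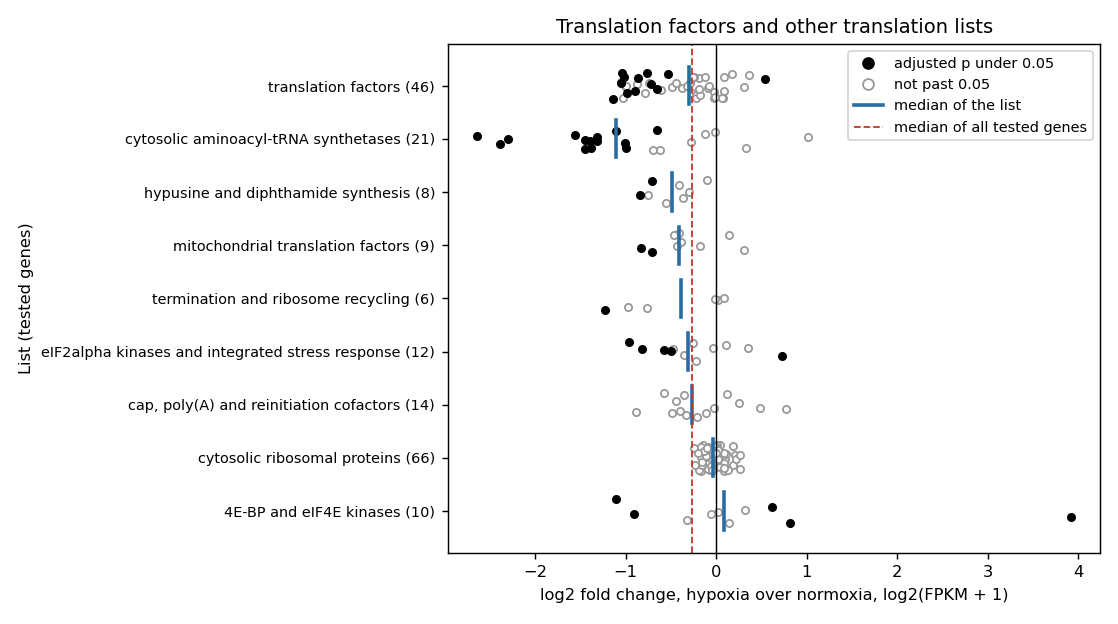
Log2 fold change (hypoxia over normoxia, log2(FPKM + 1)) of the tested genes in the translation lists, 1 point per gene, with the number of tested genes after each name and a dashed line at the median of all tested genes (-0.27). Ribosomal proteins lie close together around -0.03, and the aminoacyl-tRNA synthetases spread to the left around -1.11.

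The authors deposited 1 list of m6A peaks per condition, so that peaks have no replicate value here. The normoxia list holds 75 peaks in 35 members and the hypoxia list 71 peaks in 30. Among tested members 76.1% had a normoxia peak, beside 85.8% of all tested genes, and 65.2% had a hypoxia peak, beside 79.8%. In normoxia 16 were annotated to 5′ UTRs, 23 to exons and 36 to 3′ UTRs (48%, beside 45.8% of all peaks), and in hypoxia 13, 26 and 32 (45.1%, beside 43.7%). The median enrichment of the members' peaks over input, the authors' value, was 3.10-fold within the normoxia list, where all peaks had a median of 4.23, and 4.28-fold within the hypoxia list, where all had 4.81.

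A peak was listed in both conditions for 29 members (63% of those tested, beside 77.3% of all tested genes). Of the members' normoxia peaks 53 (70.7%, beside 72.4% of all) shared at least 1 base with a hypoxia peak of the same gene, and of their hypoxia peaks 60 (84.5%, beside 83.8% of all) shared one with a normoxia peak. EEF1E1, EIF2D, EIF2S2, EIF3M, EIF4A2 and EIF6 had peaks in the normoxia list alone, beside 8.48% of all tested genes. EIF2B3 had its peak in the hypoxia list alone, beside 2.53%, and that peak had an authors' adjusted p of 0.53. EIF4A2 had 3 normoxia peaks, each enriched less than 2-fold, and EIF2S2 had 3 as well. A gene listed in 1 condition alone has no test of the difference.

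The most peaks were carried by EIF4E2, with 6 in normoxia and 8 in hypoxia, then by EIF4G3 with 6 and 6 and by EIF4G1 with 5 and 5. EIF4G1 had 4 exonic peaks and 1 in its 3′ UTR in each list. Counts depend on how neighbouring stretches were joined. EIF3A, for example, has 1 normoxia peak of 17492 bases (chr14:128968399-128985890), introns included, and 4 hypoxia peaks inside that span. Within the hypoxia list the 3′ UTR peak of EIF4E3 (chr13:53085374-53085494) was enriched 24.7-fold, at the 98.2nd percentile of its list, and the authors gave the overlapping normoxia peak 5.82-fold. EEF2K had a 3′ UTR peak of 10.5-fold in the normoxia list and 10.9-fold in the hypoxia list.

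Of the 46 tested members 10 (21.7%, beside 11.7% of all tested genes) had no listed peak, namely EIF1, EIF1B, EIF3F, EIF3G, EIF3I, EIF4A3, EIF4G2, EIF4H, EEF1AKMT1 and EEF1AKMT4. Among them are the called genes EIF1B, EIF4A3 and EEF1AKMT4. The genes without a peak were abundant and short, with a median level of 89.3 FPKM and a median gene span of 9.87 kb, against 15.1 FPKM and 21.9 kb for the 36 members with a peak. The ranges of both measures overlapped between these sets.

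The authors' deposited table of differential peaks holds 5 peaks in 3 members, EEF2, EIF4H and EIF4E2. The genes in either peak list include 36 members but not EIF4H. Of those genes 8.76% have such a peak, and 3.24% have one with an adjusted p under 0.05. In EEF2 the 3′ UTR peak at chr2:74755287-74756680 was higher in hypoxia by 0.18 on the log2 scale (authors' adjusted p = 6.31e-48). That is a small difference with a small p, in the most abundant of the 3 genes, and EEF2 was also the member with higher mRNA. In EIF4E2 a 3′ UTR peak at chr15:133083842-133090480 was lower by 0.60 (authors' adjusted p = 0.0162). A second 3′ UTR peak of EIF4E2 at chr15:133079048-133079318 had a difference of -0.52 and an exonic one at chr15:133062847-133070176 had 0.22, with authors' adjusted p of 0.296 and 0.236. In EIF4H a 5′ UTR peak at chr3:11340820-11343288 was higher by 0.425 (authors' adjusted p = 0.00851), although neither condition's list holds a peak of EIF4H.

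**Figure D5:**
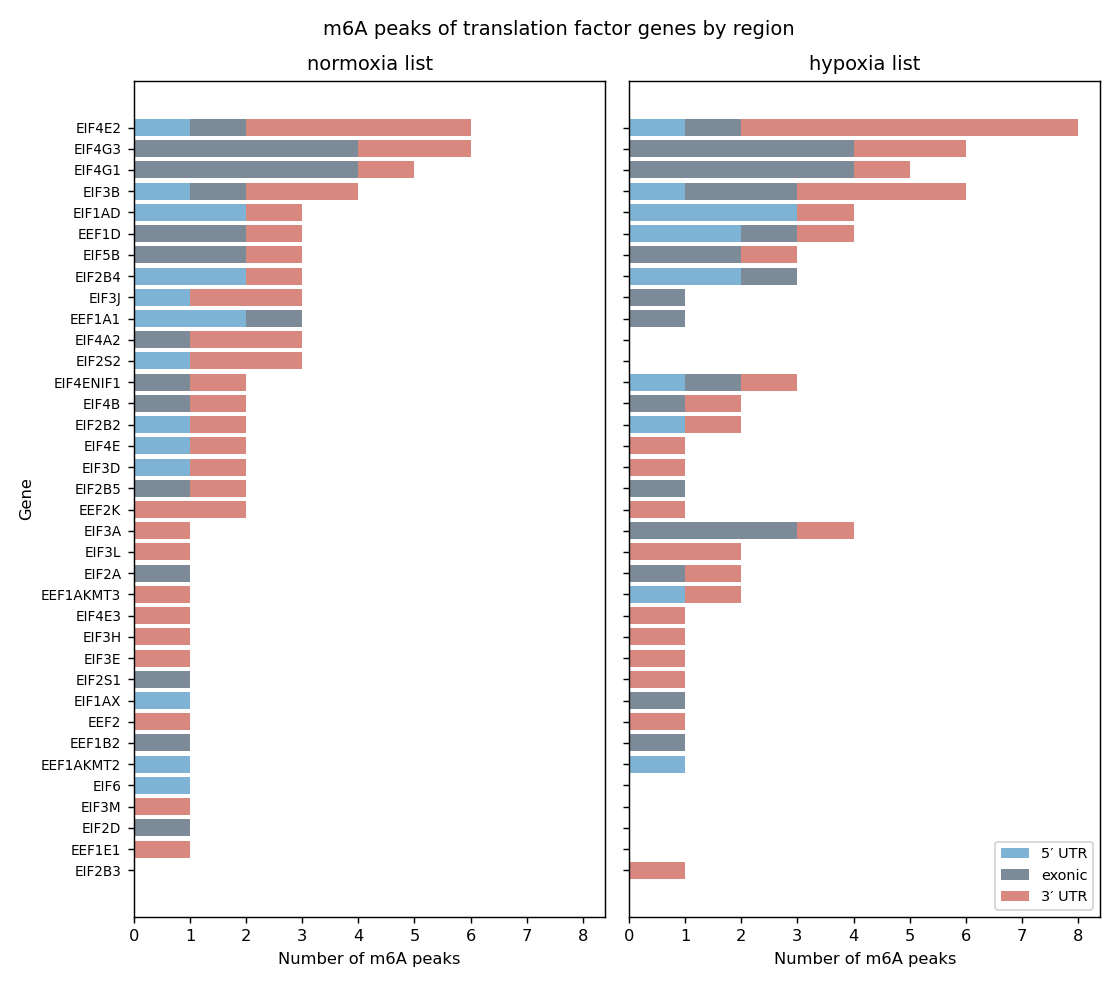
Number of m6A peaks per translation factor gene in the normoxia list (left) and the hypoxia list (right), stacked by annotated region, for the members with a listed peak. EIF4E2 has the longest bars, 6 in normoxia and 8 in hypoxia, mostly from its 3′ UTR.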

How the data were processed

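The 6 input libraries (3 normoxia, 3 hypoxia) were analysed from the deposited expression table, whose values are FPKM per the file headers. The submitters' processing notes name HISAT2 2.0.4, StringTie 2.1.2, fastp 0.19.4, FastQC, HOMER 4.10, edgeR 4.1 and the build Sscrofa11.1. They tie no tool to a table, and the peak caller and any pooling of replicates are not stated in those sources. The authors' deposited comparison gives a log2 fold change, a p-value and a q-value per gene, and their deposited peak tables give log2 enrichments or differences with p-values and adjusted p-values. Peak starts are given here counted from 1.

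FPKM hold no fragment counts: low values of 949 genes were searched for read steps, and 3 shared the most frequent ratio, so the depth and its counting error are unknown. Genes with at least 1 FPKM in 3 libraries were fitted with limma 3.58.1 (R 4.3.3, variance trend, robust estimation) on log2(FPKM + 1), which understates changes of genes with low FPKM, with Benjamini-Hochberg adjustment over all tested genes. Errors are the SD of 3 libraries or the SE of the fit. The code was tested on simulated data. Alternatives were median-ratio and TPM scaling, a pseudocount of 0.1, no filter, a replicate block, no trend or robust estimation, each library left out, and for peaks an adjusted p under 0.05, at least 4-fold enrichment and overlap over 50% of both peaks.

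Named were all called members, those with a differential peak, the most abundant of each role, those not tested, paralogue sets, and the 2 genes of each other list with the largest called change in each direction. The members and lists were chosen with earlier results of these data known. Pig gene symbols are those of the deposited table, with 120 more from a table of gene names.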

Additional observations from a re-analysis of the deposited data

How the results depend on the processing

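Over all tested genes 2699 were called, against 1501 after median-ratio scaling and 1132 to 4329 with 1 library left out. Median-ratio scaling also moved the share of higher calls from 20.4% to 49.8%. The members called went from 12 to 19 with the replicate block and to between 4 and 26 with 1 library left out, and they stayed between 8 and 12 under the scalings, the pseudocount of 0.1, no filter and no trend. The members' median log2 fold change reversed to 0.0452 after median-ratio scaling, while it lay between -0.41 and -0.32 with 1 library left out. No single member reversed in sign while called. Tested members with a normoxia peak went from 35 to 18 at 4-fold enrichment (76.1% to 39.1%, beside 85.8% to 56.7% of all tested genes). Differential peaks of members went from 5 to 3 at an authors' adjusted p under 0.05. At that threshold the members' listed peaks went from 75 to 68 in normoxia, beside 25346 to 22014 of all genes. In hypoxia they went from 71 to 66, beside 24444 to 21215.

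The replicate numbers were not taken as pairs. Same-numbered libraries had correlations of 0.586, 0.0398 and 0.697 between their deviations, and normoxia 1 correlated best with hypoxia 2 (0.641). With the replicate block 34.0% of all tested genes were called, and EIF2S1, EIF2S2, EIF3J, EIF4E, EIF4E3, EIF4ENIF1 and EIF5B joined the members called lower. The causes of these changes were not tested. The search of promoter starts was not run. Unknown depth limits the scarce members, such as EEF1E1, EIF2B3 and EEF1A2.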
